A study of Mus musculus with 4 samples.

Results

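The replication-dependent histone genes of the mouse were followed in leukemic stem cells (LSCs) with and without CD37. They were taken as the protein-coding rows of the deposited table whose GRCm38 symbol names cluster 1 to 4 and class H1, H2A, H2B, H3 or H4, which gave 53 of 17104 genes. The annotation holds 67 protein-coding genes with such a symbol, of which 14 were not analysed here. By class there were 5 H1, 12 H2A, 14 H2B, 10 H3 and 12 H4 genes. By position, 47 belonged to cluster 1 on chromosome 13, 4 to cluster 2 on chromosome 3, 1 to cluster 3 on chromosome 11 and 1 to cluster 4 on chromosome 6.

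The 4 libraries came from YFP+, c-kit+ bone marrow cells of male C57 mice with MLL-AF9 acute myeloid leukemia, 6 weeks after the secondary transplantation, as 2 CD37 fl/fl replicates (controls) and 2 CD37 -/- replicates (knockouts). Cells of both groups carried the floxed Cd37 alleles, a tamoxifen-inducible Cre at Rosa26 (Rosa26-CreERT2) and the retroviral MLL-AF9 fusion gene with its YFP reporter. The CD37 -/- cells descend from primary recipients given tamoxifen, and the CD37 fl/fl cells from recipients given corn oil, so tamoxifen itself and the loss of CD37 cannot be told apart. The labels give no age for the mice and do not say whether a replicate is a mouse or a pool, so the spread between replicates may be partly technical.

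Replication-dependent histone genes supply the proteins that package newly copied DNA and are transcribed in S phase. Core histones H2A, H2B, H3 and H4 form the nucleosome, and linker histone H1 binds the DNA between nucleosomes. Their mRNAs have no introns and, unlike other mRNAs, end in a short stem-loop instead of a poly(A) tail. The stem-loop is bound by SLBP, which serves in 3' end formation, translation and decay of these mRNAs. Libraries were made from RNA selected on oligo(dT), so a histone mRNA without a tail can reach them only in part. Some members, Hist1h1c, Hist1h2bc and Hist2h2be among them, are known to make polyadenylated mRNA too, which is common in differentiated cells.

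The stem-loops are shown because they define the family and because the H4 genes have forms found in no other class. A 16-base hairpin of the pattern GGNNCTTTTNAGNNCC was found in an annotated transcript (GENCODE M21, GRCm38) of 37 members. It took 6 forms, the commonest in 21 members of all classes but H4. The 26-base stretches below are given 5′ to 3′ with the hairpin in capitals.
Hist1h1c, chr13:23739507-23739532, plus strand: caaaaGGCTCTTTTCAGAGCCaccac
Hist1h3c, chr13:23745042-23745067, minus strand: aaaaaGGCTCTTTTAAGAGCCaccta
Hist2h2ac, chr3:96220413-96220438, minus strand: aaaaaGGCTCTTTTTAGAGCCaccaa
Hist1h4h, chr13:23531453-23531478, plus strand: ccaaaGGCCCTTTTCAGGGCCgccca
Hist1h4i, chr13:22040961-22040986, minus strand: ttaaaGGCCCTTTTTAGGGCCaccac
Hist1h4j, chr13:21735432-21735457, plus strand: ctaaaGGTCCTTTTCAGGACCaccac
The form of Hist1h3c was shared by 5 members of H2B and H3, that of Hist1h4h by 7 H4 genes and that of Hist1h4i by Hist2h4, while the forms of Hist2h2ac and Hist1h4j were each found in a single member. In 16 members no hairpin lay in the annotated transcript, which in several of them stops at or just past the stop codon. In 18 members the annotated transcript ended within 100 bases of the hairpin, and in 19 it ran further, by as much as 4884 bases in Hist1h1d.

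All values are the authors' FPKM, fragments per kilobase of gene scaled by depth, and the kilobases are those of the whole annotated gene. The reads implied by them came to between 15327358 and 22627491 per library. The FPKM of Cd37 was 56.6 and 46.8 in controls and 23.2 and 22.9 in knockouts, a measure over the whole gene and not over the 2 deleted exons. Kit, the gene of the sorting antigen c-kit, was read in all 4 libraries with 213 to 804 reads, and the granule gene Elane was at an FPKM of 1750 to 1884. Of 5 tested markers of leukemic myeloid progenitors, Mpo was lower (log2 fold change -1.24) and Ptprc higher (0.87) at an unadjusted p under 0.05, while Elane (0.02), Hoxa9 (0.13) and Ctsg (-1.01) did not pass. T and NK cell markers were near 0 in every library, with summed FPKM of at most 0.17 and Cd3g at 0 in both controls. Of B cell markers, only Cd79b was tested (lower, log2 fold change -0.89), and Pax5 was at 0 in 1 control. All 8 erythroid markers in the table, globins among them, had reads in every library. They summed to an FPKM of 61.0 and 5.17 in controls and 577 and 144 in knockouts. Of these, 4 of 4 tested genes were higher at an unadjusted p under 0.05. Late neutrophil markers summed to 1888 and 270 against 3449 and 2481, and 0 of 6 passed that threshold. Of all tested genes, 16.1% were higher and 7.96% lower at it. The erythroid and late neutrophil sums were both highest in knockout replicate 1 and lowest in control replicate 2. The part of such cells in the histone values below was not tested.

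Histone genes of every class were lower in CD37 -/- LSCs. The 53 members summed to an FPKM of 651 and 708 in controls and of 219 and 179 in knockouts. This was 679 ± 40.3 against 199 ± 28.7 (SD, n = 2 each), so that 29.3% of the CD37 fl/fl sum was left. As reads, the members held 0.0473% and 0.0530% of all reads in controls and 0.0185% and 0.0149% in knockouts. Both CD37 -/- values lay below both CD37 fl/fl values in 51 of the 53 members, where this held for 17.6% of the 16973 genes with a mean above 0. In bulk RNA, fewer cells in S phase and fewer histone mRNAs per cell cannot be told apart.

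The test was limma on log2(FPKM + 1) with Benjamini-Hochberg adjustment. Of the 6761 genes whose mean FPKM reached 1, 0 (0%) had an adjusted p under 0.05, so no histone gene passed, and the smallest adjusted p was 0.0502. Unadjusted, 1626 genes had a p under 0.05, with 16.1% of the tested genes higher and 7.96% lower in knockouts. limma-voom on recovered reads also called 0 genes after adjustment. Other settings called up to 88 genes, 28 of them members (robust eBayes). "Fell" is used below for a member past the unadjusted threshold. The filter kept 48 members, and 39 of these had a mean of at least 1 in CD37 -/- cells too. The other 9 passed it through the CD37 fl/fl libraries. A fit over all 16973 genes above 0 needs no such filter and held all 53 members, of which 47 fell, against 4.59% of all genes. Those that did not were Hist1h1c, Hist1h2bc, Hist2h2be, Hist1h2ag, Hist2h3c2 and Hist3h2ba. Among the 48, 45 fell, and both CD37 -/- values were below both CD37 fl/fl values in 23.7% of the 6761 genes. With limma-voom, 48 of 51 members with a mean of at least 10 reads fell, against 6.17% of the 13056 genes in that fit. That filter is also a mean over all 4 libraries, so some members passed it through the controls. Hist1h2bp, for example, had 15 and 37 reads in controls and 5 and 3 in knockouts. The median log2 fold change was -1.64 over the 48 members and 0.11 over all tested genes.

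**Figure D1:**
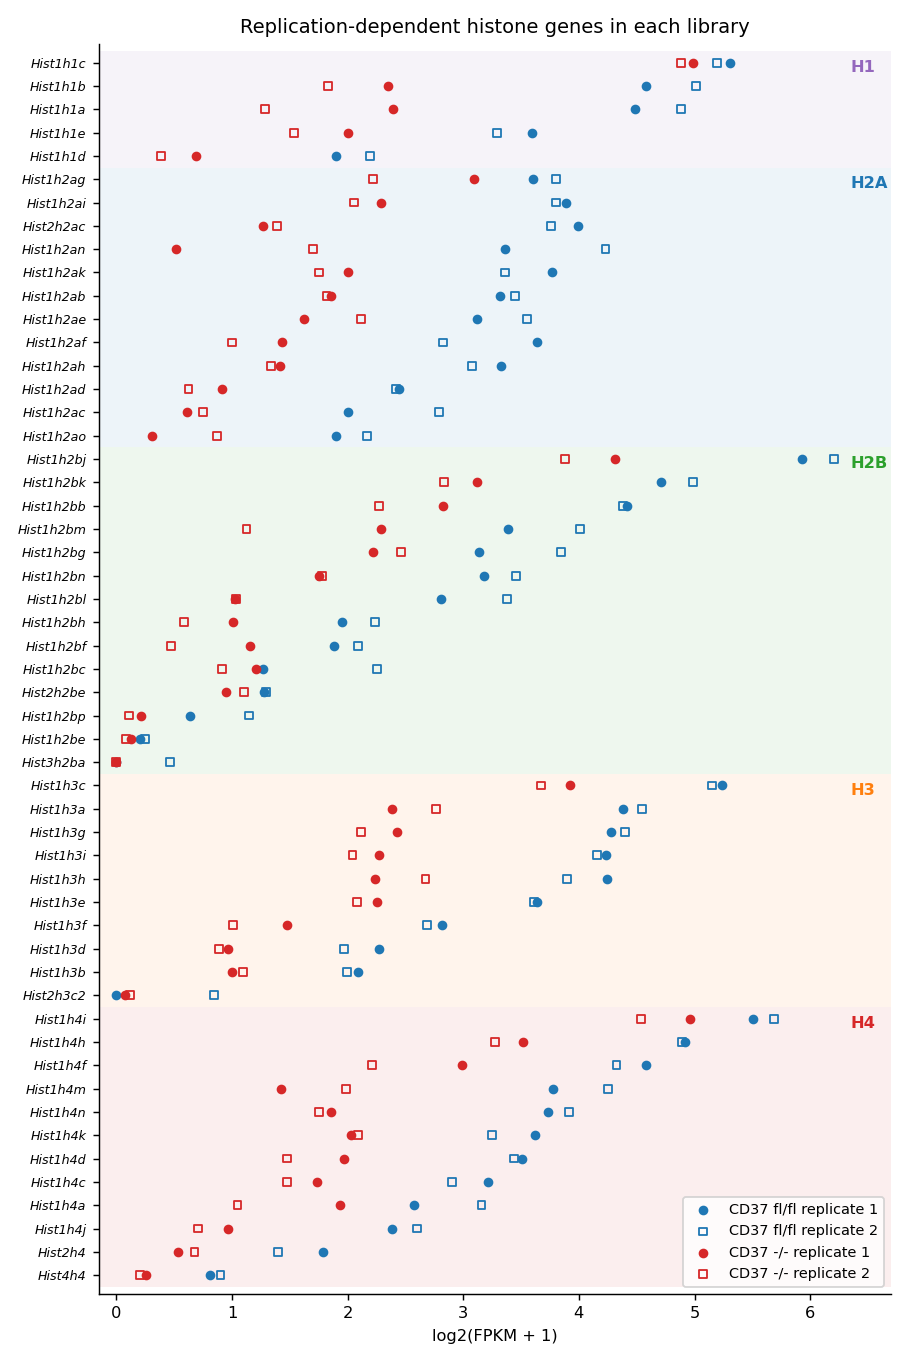
log2(FPKM + 1) of each of the 53 histone genes (rows, by class and mean level) in the 4 libraries; filled and open blue symbols are CD37 fl/fl replicates 1 and 2, red symbols CD37 -/- replicates 1 and 2. In 51 of 53 rows both red symbols lie left of both blue ones, and the gaps are smallest in Hist1h2bc and Hist1h2be.

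**Figure D2:**
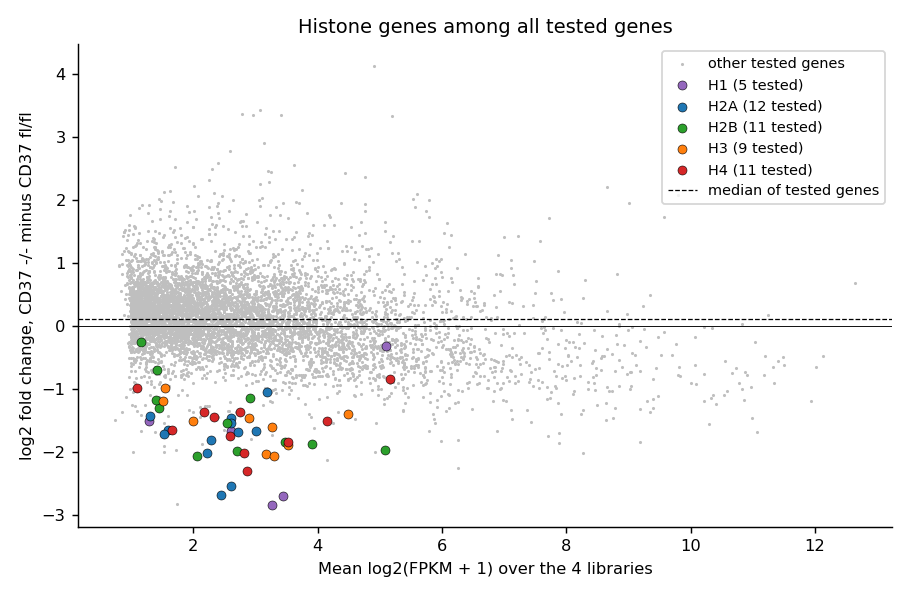
log2 fold change, CD37 -/- minus CD37 fl/fl, against the mean log2(FPKM + 1) over the 4 libraries, with 1 point per tested gene; histone genes are coloured by class, the dashed line is the median of the 6761 tested genes (0.11). The 48 histone genes lie between -2.85 and -0.26, most of them under -1.

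The share left of each class sum is given here without a test between classes. Of the summed CD37 fl/fl FPKM, 22.2% was left for H2A, 25.4% for H2B, 27.6% for H3, 34.0% for H4 and 37.9% for H1. Median log2 fold changes of tested members ran from -1.68 in H2A to -1.51 in H3 and H4, and with limma-voom from -2.88 in H1 to -1.88 in H3. H2A summed to 109 and 113 in controls and to 25.99 and 23.4 in knockouts (111 ± 2.98 against 24.7 ± 1.80, SD, n = 2). H2B, with the widest spread in the controls, summed to 146 and 185 against 48.3 and 35.9 (166 ± 27.7 against 42.1 ± 8.76, SD, n = 2).

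H3 gave 135 and 131 against 37.8 and 35.7 (133 ± 2.93 against 36.7 ± 1.54, SD, n = 2). H4, the class with the highest sum in each CD37 -/- library, gave 164 and 171 against 64.6 and 49.1 (167 ± 4.75 against 56.8 ± 10.9, SD, n = 2). H1 gave 96.8 and 108 against 42.7 and 34.7 (102 ± 7.79 against 38.7 ± 5.65, SD, n = 2). In each of the 5 classes the groups were apart by more than the spread between replicates. An exact permutation test of 2 against 2 libraries gave a two-sided p of 0.333 for each class, the smallest it allows.

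**Figure D3:**
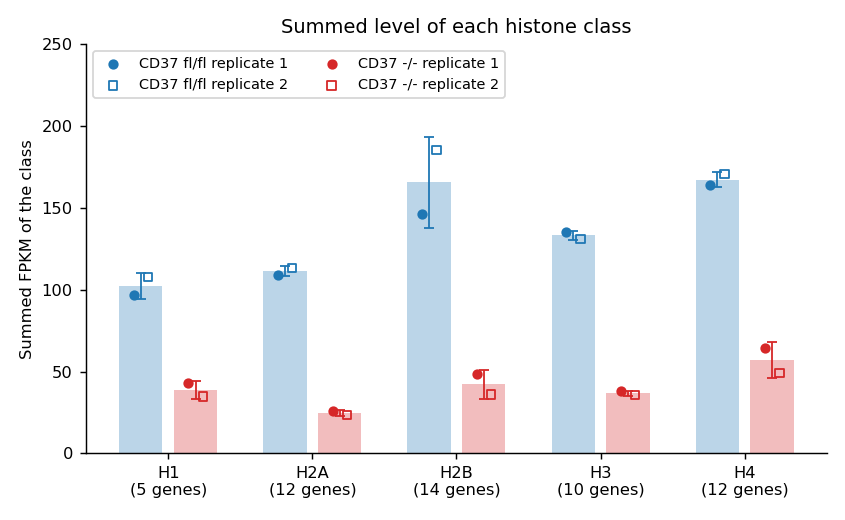
Summed FPKM of the members of each class. Bars are the means of 2 libraries, error bars the SD, and symbols the single libraries. The CD37 fl/fl sums lie between 96.8 and 185, and the CD37 -/- sums between 23.4 and 64.6.

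The makeup of the histone pool differed as well. H1 held 14.9% and 15.2% of the summed histone FPKM in controls and 19.5% and 19.4% in knockouts, while H2A went from 16.76% and 16.00% to 11.8% and 13.1%. The ratio of summed core to summed H1 FPKM was 5.73 and 5.57 in controls and 4.14 and 4.15 in knockouts. For each of these shares the groups did not overlap. Single genes made much of the H1 and H4 values. Without Hist1h1c, H1 kept 13.9% of its sum, the lowest share among the classes. The core classes together kept 27.8%, so the larger part of H1 in knockouts rested on Hist1h1c. Without Hist1h4i, H4 kept 25.6%, and without Hist1h2ag, H2A kept 19.3%.

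The 5 H1 genes encode 5 different linker histones, and at least 68.0% of the 50-base windows of each are found in no other annotated transcript, so their reads are less open to mix-ups than those of core histones. Hist1h1a (H1.1) had an FPKM of 21.4 and 28.5 in controls and of 4.26 and 1.43 in knockouts. It had the most negative log2 fold change of the 48 tested members, -2.85 (standard error 0.40, unadjusted p = 0.00045 and adjusted p = 0.0609, limma). Hist1h1b (H1.5) was at 22.9 and 31.2 against 4.10 and 2.56 (log2 fold change -2.70, standard error 0.28, adjusted p = 0.0502, limma). In both genes little was left, 11.4% and 12.3% of the control mean.

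Hist1h1e (H1.4) was at 11.1 and 8.79 against 3.01 and 1.90, a log2 fold change of -1.67 (standard error 0.24, limma). Hist1h1d (H1.3) was at 2.73 and 3.58 against 0.607 and 0.310, a log2 fold change of -1.51 (standard error 0.20, limma) that is shrunk by the pseudocount. With limma-voom it was at -2.88 and Hist1h1e at -2.06, and 14.5% of the mean was left in Hist1h1d against 24.7% in Hist1h1e. Its low FPKM reflects an annotated gene of 7425 bases, where RefSeq gives 776. If all its reads lay within the RefSeq length, its CD37 fl/fl mean would be 30.2. On that scale Hist1h1b was at 25.3, Hist1h1a at 24.8, Hist1h1e at 24.5 and Hist1h1c at 79.98. Where along the gene the reads fall was not examined, so the level of Hist1h1d per length is not settled.

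Hist1h1c (H1.2) stood apart, with an FPKM of 38.6 and 35.7 in controls and of 30.7 and 28.5 in knockouts. The groups did not overlap, and 79.7% of the mean was left. The log2 fold change of -0.32 (95% interval -0.89 to 0.26, adjusted p = 0.424, limma) did not pass either threshold and turned to 0.054 when each library was rescaled to the same sum (TPM). Its interval did not meet those of the 4 other H1 genes, the nearest of which reached -1.01, and the difference itself was not tested. Hist1h1c went from the third to the first place among the 53 members by mean FPKM.

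**Figure D4:**
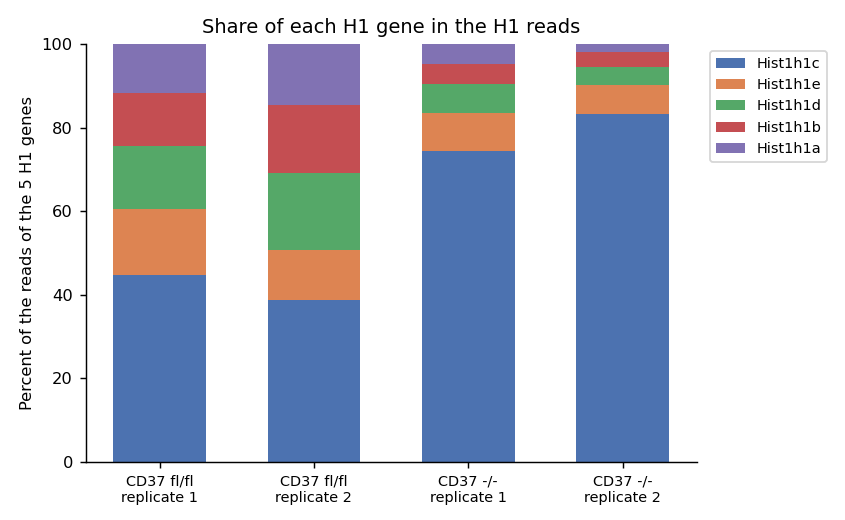
Percent of the reads of the 5 H1 genes that fell on each of them, 1 bar per library, where a whole bar is 2067, 2487, 1144 and 1209 reads from left to right. Hist1h1c, the lowest segment, takes 44.7% and 38.8% in controls (left) and 74.4% and 83.3% in knockouts (right).

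Hist1h1c led the H1 reads in all 4 libraries, with a larger share in knockouts. It held 44.7% (95% exact binomial interval 42.5 to 46.9) and 38.8% (36.9 to 40.7) of them in controls and in knockouts 74.4% (71.8 to 76.9) and 83.3% (81.1 to 85.4). Hist1h1a went from 11.8% and 14.7% to 4.90% and 1.99%. The intervals cover counting error only, since reads without molecular identifiers are not independent molecules.

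The 12 H2A genes encode 5 proteins, 8 of the genes the same one, and the median share of unique 50-base windows was 27.0%. Single H2A values are therefore uncertain where reads fit several copies. How such reads were counted is not stated. The sum is firmer if they were counted, and if they were left out the sum lacks them too. In the fit over all genes above 0, 11 of 12 fell, against 4.59% of all genes, and with the filter 12 of 12, against 7.96%. Log2 fold changes lay between -2.69 and -1.05. By mean FPKM over the 4 libraries the 3 highest were Hist1h2ag, Hist1h2ai and Hist2h2ac, while in controls alone Hist2h2ac, Hist1h2an and Hist1h2ai led.

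Hist2h2ac of cluster 2 was at an FPKM of 14.9 and 12.5 in controls and of 1.41 and 1.61 in knockouts, with little spread in either group. The log2 fold change of -2.55 (standard error 0.19, adjusted p = 0.0502, limma) had the smallest unadjusted p among the members, 1.6e-05. Hist1h2an varied more, at 9.30 and 17.8 against 0.430 and 2.25, the CD37 -/- values resting on 3 and 20 reads (log2 fold change -2.69, standard error 0.47, limma). Hist1h2ai was at 13.8 and 12.9 against 3.87 and 3.15, a log2 fold change of -1.67.

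On the log2(FPKM + 1) scale, the smallest changes in H2A were those of Hist1h2ag and Hist1h2ao. Hist1h2ag, at 11.2 and 12.97 against 7.55 and 3.64, kept 46.4% of its mean (log2 fold change -1.05, standard error 0.33, adjusted p = 0.150, limma). The knockout replicates were far apart, and the unadjusted p was above 0.05 without either control library, without knockout replicate 2 and over all genes above 0. Without replicate 2 of CD37 -/- its log2 fold change was -0.61. Hist1h2ao was at 2.72 and 3.49 against 0.235 and 0.829, with 2 and 9 reads in the CD37 -/- libraries. It kept 17.1% of its mean, less than Hist1h2ae with 29.3%, and ranks here only through its low FPKM.

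H2B members with a mean FPKM of at least 1 had log2 fold changes from -2.06 to -0.26. Hist1h2bj had the highest mean FPKM of the histone genes in controls, at 60.03 and 72.8. In knockouts it was at 18.9 and 13.7 (log2 fold change -1.97, standard error 0.27, adjusted p = 0.0606, limma). By reads in controls, Hist1h1c (924 and 965) and Hist1h4i (495 and 635) were above Hist1h2bj (426 and 584). Hist1h2bk was at 25.2 and 30.7 against 7.70 and 6.13 and Hist1h2bb at 20.3 and 19.9 against 6.10 and 3.83, with log2 fold changes of -1.87 and -1.85. All 3 kept nearly the same share, 24.6% to 24.7% of the mean. The lowest log2 fold changes were -2.06 in Hist1h2bl (5.99 and 9.39 against 1.04 and 1.04) and -1.99 in Hist1h2bm (9.46 and 15.1 against 3.87 and 1.18). The CD37 -/- values of Hist1h2bl rested on 7 and 9 reads, and 17.2% of its windows were unique.

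Hist2h2be and Hist1h2bc were the 2 tested H2B genes that did not pass the unadjusted threshold. Hist2h2be of cluster 2 was at an FPKM of 1.42 and 1.45 in controls and of 0.925 and 1.15 in knockouts, on 43 to 68 reads per library, and kept 72.1% (log2 fold change -0.26, 95% interval -0.67 to 0.15, limma). Hist1h2bc was at 1.41 and 3.78 against 1.31 and 0.883, so that replicate 1 of CD37 fl/fl sat close to the CD37 -/- libraries (log2 fold change -0.70, 95% interval -1.55 to 0.15, limma). Without that replicate the log2 fold change was -1.20 and passed the unadjusted threshold. With Hist1h1c, they were the 3 of 48 tested members that did not pass.

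The remaining 3 H2B genes were below the filter. Hist1h2bp was at an FPKM of 0.558 and 1.22 against 0.161 and 0.0756. Hist1h2be was at 0.155 and 0.190 against 0.0903 and 0.0590, over an annotated gene of 37455 bases that shares 496 bases with Hist1h1e on the same strand, so reads there cannot be told apart. Hist3h2ba, the cluster 3 member, was covered by 0 and 4 reads in controls and by 0 in both knockouts, and a difference was not detectable at this depth.

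The 10 H3 genes encode 2 proteins, H3.1 and H3.2. The median share of unique windows was 42.8%, with 6.08% in Hist1h3h and 12.4% in Hist1h3i, so single H3 values are uncertain too. The 4 H3.1 genes summed to an FPKM of 73.9 and 73.2 in controls and of 16.1 and 17.6 in knockouts, with 22.96% left. The 6 H3.2 genes summed to 61.4 and 57.9 against 21.7 and 18.03, with 33.3% left. Log2 fold changes of the 4 H3.1 genes ran from -2.06 to -1.62, and those of the 5 tested H3.2 genes from -1.51 to -0.99. The 2 ranges overlapped with limma-voom on recovered reads, where Hist1h3f (H3.2) was at -2.11 and Hist1h3h (H3.1) at -1.79, and the difference was not tested.

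Among H3.1 genes, Hist1h3g was at 18.3 and 20.04 against 4.36 and 3.34 (log2 fold change -2.06, standard error 0.22, adjusted p = 0.0502, limma). Hist1h3i was at 17.8 and 16.8 against 3.84 and 3.12, and Hist1h3a at 19.8 and 22.4 against 4.22 and 5.79. Among H3.2 genes, Hist1h3c was the most abundant, at 36.8 and 34.5 against 14.1 and 11.7 (log2 fold change -1.40, standard error 0.23, limma). On the log2(FPKM + 1) scale the smallest changes were in the low genes Hist1h3d, at 3.81 and 2.91 against 0.948 and 0.849, and Hist1h3b, at 3.26 and 2.98 against 1.00 and 1.14. By share left the order differed, with 36.3% in Hist1h3c, 34.3% in Hist1h3b and 26.7% in Hist1h3d. Hist2h3c2 of cluster 2 had 0 and 14 reads against 1 and 2, so its groups overlapped, as did those of Hist3h2ba and of no other member.

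The 12 H4 genes all encode the same protein of 103 residues. Over whole transcripts, with the bases after the stop codon, the median share of unique windows was 65.8%. It ran from 10.2% in Hist1h4m to 99.0% in Hist2h4, and coding sequences alone were not compared. In the fit over all genes above 0, 12 of 12 fell, against 4.59% of all genes. Hist1h4m was the lowest, at an FPKM of 12.7 and 18.1 against 1.68 and 2.97 (log2 fold change -2.31, standard error 0.29, adjusted p = 0.0502, limma). Hist1h4n was at 12.3 and 14.1 against 2.62 and 2.36, a log2 fold change of -2.02. With 10.2% and 14.4% unique windows, Hist1h4m and Hist1h4n are uncertain as single genes. In knockouts Hist1h4m had 12 and 27 reads and Hist1h4n 20 and 23. Hist1h4h, at 29.3 and 28.6 against 10.4 and 8.65, kept 33.0%, and Hist1h4f, at 22.9 and 19.04 against 6.92 and 3.62, kept 25.1%.

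Hist1h4i, the most abundant H4 gene, was at 44.4 and 50.4 in controls and at 30.2 and 22.2 in knockouts. It kept 55.3% (log2 fold change -0.84, 95% interval -1.50 to -0.18, adjusted p = 0.151, limma), the smallest change of the class. The unadjusted p was above 0.05 without either control library, without knockout replicate 2 (log2 fold change -0.63) and under TPM rescaling. Of the H4 reads it held 32.4% and 35.5% in controls and 53.4% and 52.4% in knockouts. Hist2h4, the other gene with its form of the hairpin, was at 2.44 and 1.63 against 0.450 and 0.596. It kept 25.7%, with a log2 fold change of -0.98 (95% interval -1.48 to -0.49, limma), and the difference between the 2 genes was not tested. Hist4h4, the cluster 4 member, was below the filter at 0.752 and 0.867 against 0.197 and 0.154, with 33 and 43 against 10 and 10 reads.

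By cluster, the 47 members of cluster 1 summed to an FPKM of 631 and 690 in controls and of 216 and 175 in knockouts, with 29.6% left. The 4 members of cluster 2 summed to 18.8 and 16.4 against 2.84 and 3.44, with 17.8% left. Hist2h2ac made most of the control sum, and as a share of all reads, which weighs the long Hist2h2be more, 30.3% was left. Cluster 1 falls into 3 stretches set apart by more than 200 kb. The first, chr13:21715763-21832196 with 15 members from Hist1h2bl to Hist1h4n, kept 19.7% of its sum. In the second, chr13:22035164-22043676 with 5 members from Hist1h2ah to Hist1h2bj, 34.9% was left, and in the third, chr13:23531050-23764406 with 27 members, 32.3%. Median log2 fold changes were -1.84, -1.82 and -1.51 over 14, 5 and 26 tested members. In the fit over all genes above 0, 15 of 15, 4 of 5 and 25 of 27 fell, against 4.59% of all genes.

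**Figure D5:**
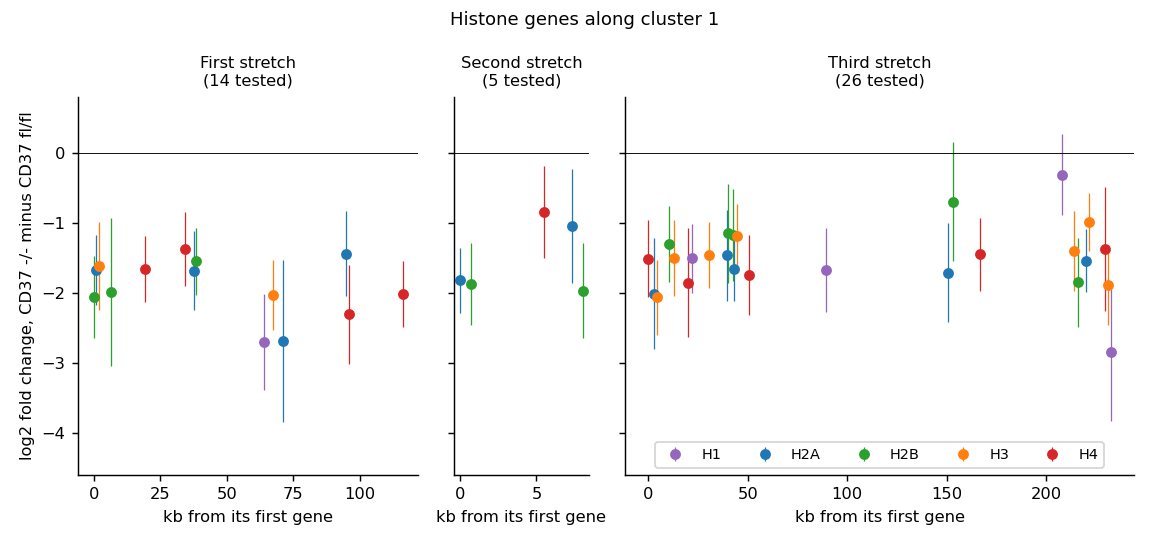
log2 fold change, CD37 -/- minus CD37 fl/fl, of the tested cluster 1 members against the distance in kb from the first gene of their stretch, with 95% intervals from limma and colours by class. Every point is below 0, and the least negative ones are Hist1h1c and Hist1h2bc in the third stretch and Hist1h4i in the second.

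Neighbours did not always move alike. In 9 places an H2A and an H2B gene start head to head, with 175 to 301 bases between them. Hist1h2ah and Hist1h2bk kept 19.5% and 24.7% of their means, and Hist1h2ak and Hist1h2bn 24.6% and 26.6%. Hist2h2ac and Hist2h2be, whose starts lie 238 bases apart, kept 11.01% and 72.1%. Hist1h2ac and Hist1h2bc, 250 bases apart, kept 13.5% and 42.2%. In the pair of Hist1h2ag and Hist1h2bj the order was the other way, with 46.4% and 24.6% left. The difference in log2 fold change within pairs, H2A minus H2B on recovered reads (limma-voom), ran from -2.66 to 0.86.

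Promoters are shown for members with large and small losses and for the member with the highest mean FPKM in controls. They are from RefSeq on GRCm38, with 250 bases before and 50 after the gene's start. Capitals mark the TATA box sequence TATAAA, the CCAAT box, the octamer ATTTGCAT, the motif AAACACA known from H1 promoters, and TTTCGCGC, an E2F-type motif. Only these exact sequences were sought, at any position and on either strand. A TATAAA far from the start is therefore counted, and a TATA box of another sequence is not. The motifs do not overlap each other in these 5 sequences.
Hist1h1a, chr13:23763418-23763717, plus strand: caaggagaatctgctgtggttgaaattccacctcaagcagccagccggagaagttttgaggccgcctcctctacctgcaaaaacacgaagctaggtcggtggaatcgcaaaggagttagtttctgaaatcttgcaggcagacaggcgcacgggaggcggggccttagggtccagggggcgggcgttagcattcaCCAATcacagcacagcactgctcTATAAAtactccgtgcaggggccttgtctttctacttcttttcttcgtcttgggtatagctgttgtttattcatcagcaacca
Hist1h1c, chr13:23738557-23738856, plus strand: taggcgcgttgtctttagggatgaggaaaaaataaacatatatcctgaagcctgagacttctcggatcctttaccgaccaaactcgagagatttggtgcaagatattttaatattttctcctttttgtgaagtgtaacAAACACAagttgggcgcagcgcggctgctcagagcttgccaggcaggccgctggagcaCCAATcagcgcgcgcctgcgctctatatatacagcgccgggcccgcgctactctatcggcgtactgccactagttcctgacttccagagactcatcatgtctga
Hist2h2ac, chr3:96220831-96221130, minus strand: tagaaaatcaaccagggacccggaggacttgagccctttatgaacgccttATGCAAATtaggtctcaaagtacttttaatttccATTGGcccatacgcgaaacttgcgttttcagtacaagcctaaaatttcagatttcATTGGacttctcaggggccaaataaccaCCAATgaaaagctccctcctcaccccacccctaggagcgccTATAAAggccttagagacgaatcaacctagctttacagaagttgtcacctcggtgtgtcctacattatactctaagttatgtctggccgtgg
Hist1h2bj, chr13:22042948-22043247, plus strand: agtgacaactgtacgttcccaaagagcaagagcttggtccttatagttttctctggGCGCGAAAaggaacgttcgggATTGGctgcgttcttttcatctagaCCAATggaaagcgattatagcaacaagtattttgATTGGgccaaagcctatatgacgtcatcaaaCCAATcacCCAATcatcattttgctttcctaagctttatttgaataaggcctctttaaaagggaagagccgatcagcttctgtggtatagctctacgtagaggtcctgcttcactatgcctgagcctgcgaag
Hist1h4i, chr13:22041313-22041612, minus strand: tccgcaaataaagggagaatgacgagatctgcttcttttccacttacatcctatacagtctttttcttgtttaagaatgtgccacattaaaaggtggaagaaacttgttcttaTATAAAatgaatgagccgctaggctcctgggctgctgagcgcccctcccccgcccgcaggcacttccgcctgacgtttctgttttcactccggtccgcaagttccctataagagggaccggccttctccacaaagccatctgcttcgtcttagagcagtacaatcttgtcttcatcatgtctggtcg
The promoter of Hist1h1a held a CCAAT and a TATAAA, and that of Hist1h1c a CCAAT and an AAACACA but no TATAAA. Hist2h2ac and Hist1h2bj each held several CCAAT boxes, with an octamer in the first and TTTCGCGC in the second. Hist1h4i held only TATAAA.

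A promoter was matched for 48 of the 53 members. TATAAA was held by 64.6% of the 48 promoters and by 13.6% of all 32851, and CCAAT by 83.3% and 37.4%. CCAAT was in every H1, H2A, H2B and H3 promoter matched and in 3 of 11 H4 promoters. ATTTGCAT was held by 5 of 12 H2A and 4 of 12 H2B promoters and by no other class, against 1.74% of all promoters. TTTCGCGC had the same counts, against 0.323% of all. Promoters of head-to-head pairs overlap, so a site between the starts can count for both genes, and such counts are not independent. The TTTCGCGC of Hist1h2bp, Hist1h2bk, Hist1h2bj and Hist1h2bf was also that of their partners Hist1h2an, Hist1h2ah, Hist1h2ag and Hist1h2ad. AAACACA was in 4 of 5 H1 promoters and in 7.18% of all. Tested members with and without a motif had median log2 fold changes of -1.67 and -1.49 for TATAAA, of -1.67 and -1.66 for CCAAT, of -1.82 and -1.64 for ATTTGCAT, of -1.61 and -1.66 for AAACACA and of -1.85 and -1.62 for TTTCGCGC. These medians are close compared with the range within each set.

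Members were also set side by side by where the annotated transcript ends. The median share left per member was 24.6% where it ends within 100 bases of the hairpin, 22.3% with no hairpin and 24.7% where it runs further. Of the summed FPKM, 26.1%, 19.97% and 45.9% was left, the last in the set of Hist1h1c and Hist1h4i. The 12 members with at least 700 bases after the stop codon kept 51.0% of their sum and the other 41 kept 26.5%, with medians per member of 25.2% and 24.6%. These 12 include Hist1h1c, Hist1h2bc and Hist2h2be, but also Hist1h1d with 14.5% and Hist1h2ac with 13.5% left. By uniqueness, the 29 members with at least 50% unique windows kept 34.7% of their sum and the 24 others 23.1%.

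Other RNAs without a tail were read for comparison. The 18 tested small nuclear, nucleolar and related RNAs had a median of -0.21 on the log2 scale. Of these, 3 were at 0 in replicate 1 of either group and 2 in replicate 2 of CD37 -/-. Their medians thus rest in part on genes at the floor. At an unadjusted p under 0.05, 3 were lower and 1 higher, where 7.96% of all tested genes were lower and 16.1% higher. For these RNAs the median difference from the CD37 fl/fl mean was 0.32 in replicate 1 and -1.27 in replicate 2 of CD37 -/-. For the 48 histone genes it was -1.52 and -1.72. How well either library was depleted of RNA without a tail was not tested.

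Genes that serve histone mRNAs were taken from a list each. Of 28 tested genes for histone transcription and 3' processing, 5 were higher and 2 lower at an unadjusted p under 0.05, where 16.1% of all tested genes were higher and 7.96% lower, with a median log2 fold change of 0.16. Lowest were Nelfe (log2 fold change -1.08), a subunit of the negative elongation factor, and Snrpf (-0.82), an Sm protein. Highest were Cdk2 (0.98), the S-phase kinase, and Pcf11 (0.93), of the cleavage machinery. Of 15 tested genes of histone mRNA decay, 2 were higher and 1 lower, near the same 16.1% and 7.96% (median 0.13), from Lsm2 (-0.72) and Lsm3 (-0.48, above the threshold) to Tut7 (0.68) and Pnrc2 (0.98).

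Of 21 tested histone chaperone genes, 4 were higher and 0 lower (median 0.25), again beside 16.1% and 7.96% of all tested genes. The highest were Mcm2 (1.14) and Supt16 (1.03), and the lowest Set (-0.51) and Ipo4 (-0.37), both short of the threshold. Replacement histones, most of them made independently of S phase from polyadenylated mRNAs, had a negative log2 fold change in 6 of 9 tested genes. Their median was -0.29, where that of all tested genes was 0.11. A single gene passed in each direction, H2afj (-0.97) and H2afy (0.99). H3f3b was at -0.57 and Cenpa at 0.25, short of the threshold.

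S-phase and mitotic genes with polyadenylated mRNAs included none that was lower at that threshold. Of 31 tested S-phase genes, 7 were higher and 0 lower, beside 16.1% and 7.96% of all tested genes, with a median of 0.20 where that of all tested genes was 0.11. Mcm4, of the replicative helicase, was at an FPKM of 4.81 and 7.62 in controls and of 14.2 and 16.7 in knockouts, a log2 fold change of 1.21, and Mcm2 was at 1.14. The lowest, Gins4 (-0.20) and Rfc4 (-0.19), did not pass. Of 22 tested mitosis genes, 9 were higher and 0 lower (median 0.50), from Birc5 (-0.59) and Mki67 (0.09), which did not pass, to Ccna2 (0.90) and Aurkb (0.92).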

How the data were processed

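Poly(A) RNA of sorted LSCs was sequenced by the authors as dUTP-stranded libraries on a NovaSeq. The submitters' processing notes list fastp 0.20.1, STAR 2.7.7a, featureCounts 2.0.0, edgeR and the build mm39, without their roles. The authors deposited FPKM values, 1 column per library. Taken with the gene spans of GENCODE M21 (GRCm38), 98.9% of each library's values were whole reads (tolerance 0.05), against 11.6% to 11.9% with exon length. Names, spans and positions are from this annotation. Recovered reads served for depth, shares and alternatives.

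Genes were kept where the mean FPKM reached 1 (6761 genes), and log2(FPKM + 1) was fitted with lmFit and eBayes (trend) in limma 3.58.1 (R 4.3.3), CD37 -/- minus CD37 fl/fl, without a block, and p-values were adjusted by Benjamini-Hochberg across them. The code was tested on simulated data. Summed levels were compared with exact permutation tests (scipy 1.17.1). Tables and plots used Python 3.11.15, pandas 2.3.3, numpy 2.4.6 and matplotlib 3.10.9. Named genes were all H1 members; in each core class the 3 highest by mean FPKM and the 2 largest and 2 smallest changes; tested members of clusters 2 to 4; members whose groups overlap; and the 2 highest and 2 lowest genes of each other list. Others were named after their values were seen. Members and lists were chosen with earlier results of these data known. 2 pseudogene rows were left out.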

Additional observations from a re-analysis of the deposited data

How the results depend on the processing

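With the same 48 members tested, 44 to 47 fell on other settings (42 to 45 with a library left out), and 47 to 48 had a negative log2 fold change. With adjustment over all genes 0 members passed, and 45 genes passed with a filter at a mean FPKM of 5, 88 with robust eBayes and 16 with FPKM per exon length, 21, 28 and 5 of them members. The replicate block called 73 genes, 19 of them members. The labels do not tie equal numbers to a shared mouse or day, and the deviations of same-numbered libraries correlated at -0.04. The median log2 fold change of members, -1.64, was -2.01 with a pseudocount of 0.1, -1.83 after division by the upper quartile and -2.07 with limma-voom, and -1.72 to -1.52 with a library left out. TPM rescaling moved the median of all genes from 0.11 to 0.49 and turned Hist1h1c to 0.054. Log2 ratios of class sums in the order H1, H2A, H2B, H3, H4 were -1.40, -2.17, -1.98, -1.86 and -1.56. They were -1.03, -1.79, -1.61, -1.47 and -1.19 under TPM rescaling. Division by the upper quartile gave -1.67 for H1, -2.44 for H2A, -2.13 for H3 and -1.82 for H4. Without their highest member, sums of H1, H2A, H3 and H4 were at -2.84, -2.37, -2.03 and -1.97. H2B was at -1.70 as a share of reads, and H4 between -1.77 and -1.37 with a library left out. Where a value moved, the cause was not tested, apart from members left out. Limma-voom, exon length, shares of reads and sums without a member were chosen after seeing the data. In 703 alternatives of single members 689 kept their direction and side of the unadjusted threshold, and Hist1h2ag and Hist1h4i lost it in 4 each. Depth limits single genes most, since 25 members had under 30 reads in both CD37 -/- libraries.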
